A study of Mus musculus with 19 samples.

Results

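Apolipoproteins carry lipids between cells. The 5 genes described here are Apoe, Apoc1, Apoc2, Apoc4 and Apod, taken by name from the expression tables of 3 sorted cell types, which together name 6843 genes. Apoc2 was picked because its level was lower with shXbp1 in all 3 cell types, so its difference between the viruses is given as a description, with no test; the other genes were taken by family. Apoe and Apoc2 had a row in all 3 tables, Apod in the astrocyte and microglia tables, and Apoc1 and Apoc4 in the microglia and monocyte tables. The remaining combinations were not analysed here, which leaves 12 of gene and cell type.

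The mice were female, wild-type C57Bl/6 at postnatal day 85, and every one had experimental autoimmune encephalomyelitis (EAE), a model of multiple sclerosis, induced with the myelin fragment MOG35-55, at 25 µg in the adjuvant CFA. They had received an intracranial lentivirus, pLenti-Gfap-GFP-shXbp1 (shXbp1) or pLenti-Gfap-GFP-shScramble (shScrmbl), in which the promoter of Gfap, an astrocyte gene, drives the hairpin. Microglia and monocytes therefore came from mice whose virus was directed at another cell type. The protein of Xbp1 switches on genes that relieve stress of the endoplasmic reticulum. The 19 sorted libraries were 4 shXbp1 and 4 shScrmbl of astrocytes, 3 and 4 of microglia, and 2 and 2 of monocytes, with no group without EAE or virus. Labels say that each CNS was taken from a single mouse, but they do not tie the libraries of different cell types to one another.

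Apoe is the main lipoprotein component made in the brain, secreted by astrocytes and, in disease, by microglia and macrophages, and it is taken up through receptors of the LDL receptor family. Apoc2 is the cofactor that lipoprotein lipase needs to hydrolyse triglycerides, while Apoc1 is an inhibitor of lipoprotein uptake and of lipid transfer, and Apoc4 is a minor lipoprotein component. In mouse macrophages the Apoe, Apoc1, Apoc4 and Apoc2 genes form a cluster that liver X receptors, sensors of oxidised cholesterol, can induce together. Apod lies elsewhere and belongs to the lipocalins, small carriers of hydrophobic molecules. In brain it is known from oligodendrocytes, astrocytes and perivascular cells.

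The values are a normalised signal, in which 1 counted 3′ tag was worth 4.22 to 76.0 units depending on the library. Dividing by that unit gave whole counts, with totals of 53228 to 221367 in shXbp1 and 32842 to 302003 in shScrmbl astrocytes, 10039 to 46586 and 17892 to 122002 in microglia, and 15654 to 56625 and 74340 to 112676 in monocytes. The shallowest libraries of microglia and monocytes were thus shXbp1 ones. The targeted gene, Xbp1, averaged 49.5 ± 22.3 in shXbp1 and 49.8 ± 30.3 in shScrmbl astrocytes (SD, n = 4 each), a difference within the SD of either group, from 28 and 22 counts. In the astrocyte libraries, markers of choroid plexus and ependyma, chiefly the thyroxine carrier Ttr, took 16.8% to 25.9% of counts with shXbp1 and 22.6% to 30.7% with shScrmbl, whereas 15 astrocyte markers took 0.249% to 0.306% and 0.0967% to 0.381%. The name "astrocytes" is therefore the label of the sort. In the microglia libraries 4 choroid plexus and ependyma markers took 3.64% to 5.28% of counts with shXbp1 and 1.75% to 6.87% with shScrmbl. There, 20 microglia markers took 2.52% to 3.50% and 2.81% to 3.77%. The microglial receptor gene P2ry12 averaged 593 in microglia, at 0 in none of those libraries. The monocyte genes Ccr2 and Ly6c2 averaged 257 and 252 in monocytes, at 0 in none of the monocyte libraries. Microglia markers also took 1.28% to 1.47% of counts in shXbp1 and 1.58% to 1.89% in shScrmbl monocyte libraries. Lymphocyte markers, 9 of 16 measured, took 0.381% to 0.537% and 0.265% to 0.379% of the same libraries. Among them Nkg7 averaged 1142 and Cd3d 679 in monocytes. In bulk libraries, fewer cells of a type and less RNA per cell cannot be told apart.

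Apoc2, Apoc4, Apoc1 and Apoe lie in that order on the minus strand of chromosome 7 (GRCm38, GENCODE M21): Apoc2 at chr7:19671579-19677941, Apoc4 at chr7:19678083-19681479, Apoc1 at chr7:19689481-19692660 and Apoe at chr7:19696109-19699188. The stretch from Apoc2 to Apoe spans 27610 bases, and 141 bases separate Apoc2 from Apoc4. Apod is on the minus strand at chr16:31296192-31314808. An annotated read-through gene, Gm44805, spans Apoc2 and Apoc4 and ends 5 bases from the 3′ end of Apoc2. It has no row in the tables, so 3′ counts of Apoc2 cannot be told apart from counts of the read-through transcript. Upstream sequences are shown for Apoe, Apoc2 and Apoc4, the 3 cluster genes whose monocyte libraries separated by virus. Of all monocyte genes, 25% separated with shXbp1 lower. Apoc2 was chosen for its difference, and Apoc4 rested on 0 against 9 counts. Apoc1 had no promoter window to show. The sequences are from RefSeq (GRCm38.p6), 5′ to 3′ on the minus strand, ending at the base before the RefSeq start. For Apoc4 that start is 19681460, so the stretch shown reaches into the GENCODE gene, which on this strand begins at 19681479. For Apoc2 the whole gap to Apoc4 is given. Capitals mark AGGTCA, the unit bound by liver X receptors and related nuclear receptors.
Apoe, chr7:19699189-19699438: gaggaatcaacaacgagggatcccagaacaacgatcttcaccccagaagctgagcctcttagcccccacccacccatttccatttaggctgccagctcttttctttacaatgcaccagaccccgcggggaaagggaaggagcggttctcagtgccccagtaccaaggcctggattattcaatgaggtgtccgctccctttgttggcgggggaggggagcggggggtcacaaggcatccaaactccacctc
Apoc2, chr7:19677942-19678082: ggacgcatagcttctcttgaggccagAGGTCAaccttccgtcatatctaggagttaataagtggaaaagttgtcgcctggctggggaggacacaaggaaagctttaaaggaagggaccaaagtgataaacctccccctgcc
Apoc4, chr7:19681461-19681710: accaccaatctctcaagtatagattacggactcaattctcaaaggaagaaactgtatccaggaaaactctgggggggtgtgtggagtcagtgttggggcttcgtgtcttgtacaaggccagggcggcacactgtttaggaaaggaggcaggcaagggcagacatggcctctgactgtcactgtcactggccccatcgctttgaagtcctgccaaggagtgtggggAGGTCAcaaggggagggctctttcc

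AGGTCA began 115 bases before the start of Apoc2 and again 42 bases past it at position 19677899. It also began 25 bases before the RefSeq start of Apoc4, at position 19681485, and none was found in the Apoe window. Windows of 250 bases before to 50 after the start were searched on both strands, for 4 of the 5 genes. AGGTCA was present in 16.3% of all 32851 windows. The liver X receptor direct repeat, AGGTCA and a second copy after 4 bases, was in 0.0152% of windows and in no window of these genes. Of the motifs of the unfolded protein response, the core TGACGTGG was in 0.676% of windows and the ER stress element (CCAAT, 9 bases, CCACG) in 0.119%, and these 4 genes had neither. CCACG alone, which the ER stress element contains and the other strand of TGACGTGG contains too, was in 32.8% of windows. Its single match here began 201 bases before the start of Apoc2, inside the Apoc4 gene. TATAAA, in 13.6% of windows, matched only a second Apoe window, and CACGTG, in 7.15%, matched none. A match is a run of letters and not a bound site.

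Apoe was the most abundant of the 5 in each cell type. By mean signal it ranked 23 of 6376 genes in astrocytes, 4 of 3067 in microglia and 8 of 3776 in monocytes. Apoc2 ranked 2431, 234 and 148 in the same order, and Apod ranked 84 in astrocytes and 1702 in microglia. The tables were normalised separately, so levels in different cell types are set side by side with no test. Tags come from transcript ends, so no length term was applied to these ranks.

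**Figure D1:**
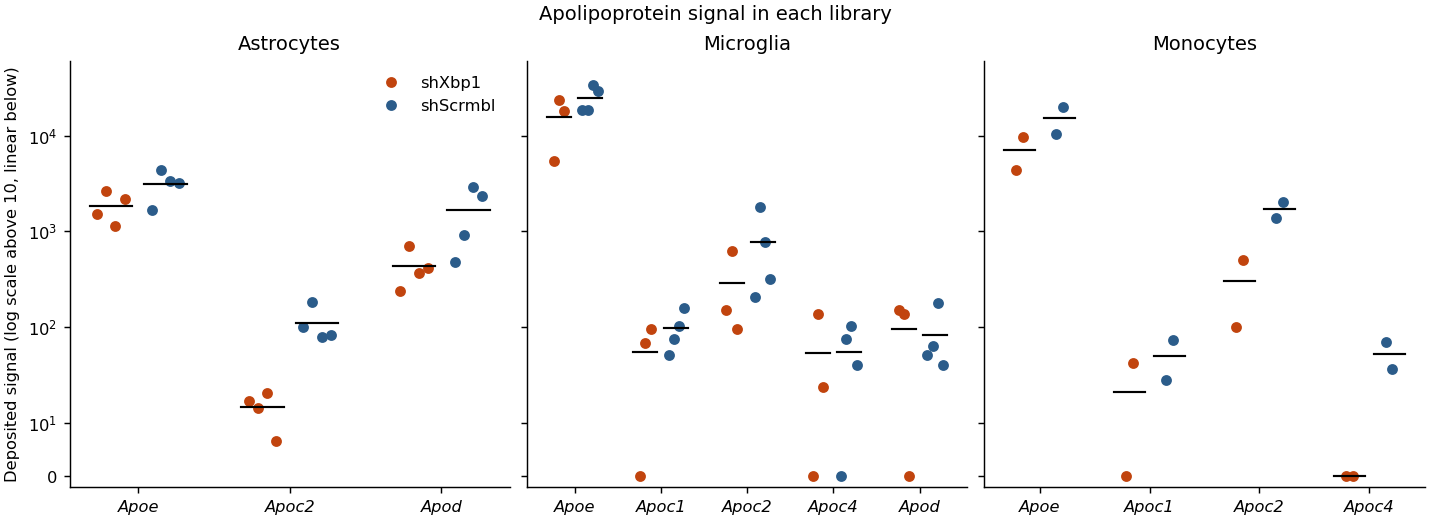
Normalised signal of each apolipoprotein in every library, by cell type, with shXbp1 left of shScrmbl; points are libraries, lines are means, and the axis is linear below 10 and logarithmic above. Apoc2 lies between 6.64 and 20.8 in the shXbp1 astrocyte libraries and between 79.9 and 186 in the shScrmbl ones.

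Apoe had lower mean signal with shXbp1 in each cell type, and no difference passed the test. In astrocytes it measured 1518, 2637, 1135 and 2171 with shXbp1, against 1685, 4411, 3355 and 3172 with shScrmbl. The groups overlapped, with 2 shXbp1 libraries below every shScrmbl one. The means were 1865 ± 669 and 3156 ± 1122 (SD, n = 4 each), a log2 difference of -0.75 ± 0.30 (SE, 95% interval -1.39 to -0.11) with a limma adjusted p of 0.824. Here and below the differences are of log2(signal + 1), shXbp1 minus shScrmbl, and adjusted p-values (Benjamini-Hochberg) cover all genes tested in the cell type. limma passed 0% of the 6366 astrocyte genes at an adjusted p of 0.05, and 298 had an unadjusted p under 0.05.

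In microglia, where Apoe was among the most abundant transcripts, it measured 5396, 23802 and 18291 with shXbp1, against 18634, 18335, 33718 and 28960 with shScrmbl. The groups overlapped, and shXbp1 replicate 1, the shallowest library, was the lowest. The log2 difference was -0.85 ± 0.51 (SE, 95% interval -2.01 to 0.31; limma adjusted p = 0.814), where limma passed 0% of 3066 genes and 166 had an unadjusted p under 0.05. In monocytes Apoe measured 4399 and 9693 with shXbp1, against 10410 and 19887 with shScrmbl. These did not overlap, the mean being 2.15-fold lower with shXbp1, but the log2 difference of -1.14 ± 0.58 (SE) had a limma adjusted p of 0.887. Of all monocyte genes, 25% had both shXbp1 libraries below both shScrmbl ones.

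Apoc2, chosen by this difference, had in astrocytes a signal of 17.1, 14.4, 20.8 and 6.64 with shXbp1, against 100, 186, 79.9 and 82.7 with shScrmbl. Every shXbp1 library was below every shScrmbl library. The means were 14.7 ± 6.00 and 112 ± 49.8 (SD, n = 4 each), 7.61-fold lower with shXbp1, and rested on 7 counts in all with shXbp1 and 55 with shScrmbl. The ratio of pooled counts per unit of library size was 0.0895 (95% exact interval 0.0344 to 0.197, counting error only). The intervals on pooled Apoc2 counts, here and below, leave out the spread between libraries and the choice of the gene, so they test nothing. Of the 55 counts, 44 came from shScrmbl replicate 2, and without it the ratio was 0.153 (0.0504 to 0.433). On the log2 scale the difference was -2.86 ± 0.77 (SE) in limma and -3.11 in edgeR's quasi-likelihood fit to the counts. The choice of Apoc2 used these values, so they give no test of it. Over all astrocyte genes, 0.785% had groups that separated with shXbp1 lower, and edgeR passed 0.0157%. Nothing is read from either share for Apoc2.

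In monocytes Apoc2 measured 101 and 502 with shXbp1, against 1397 and 2040 with shScrmbl. The groups did not overlap, and the mean was 5.69-fold lower with shXbp1. The counts were 26 and 324, and the pooled ratio was 0.215 (95% exact interval 0.139 to 0.322), with log2 differences of -2.90 ± 0.71 (SE) in limma and -2.34 in edgeR. Of the 26 counts, 24 came from shXbp1 replicate 2, and without it the pooled ratio was 0.0566. Microglia were less uniform: Apoc2 measured 152, 621 and 95.8 with shXbp1, against 208, 1792, 784 and 320 with shScrmbl. There, 2 of the 3 shXbp1 libraries were below all shScrmbl ones, and replicate 2, at 621, was above 2 of them. The counts were 15 with shXbp1 and 238 with shScrmbl, the pooled ratio 0.209 (95% exact interval 0.115 to 0.352; 0.341 without shScrmbl replicate 2, 0.106 without shXbp1 replicate 2 and 0.385 without shXbp1 replicate 3), and the log2 differences -1.40 ± 0.92 (SE) in limma and -1.82 in edgeR.

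Since Apoe was lower in mean as well, Apoc2 was also counted per 100 Apoe counts of the same library. In astrocytes this was 1.12, 0.547, 1.83 and 0.306 with shXbp1, against 5.95, 4.21, 2.38 and 2.61 with shScrmbl, with no overlap. In monocytes it was 2.30 and 5.18, against 13.4 and 10.3, again with no overlap. In microglia it was 2.82, 2.61 and 0.524 with shXbp1, against 1.11, 9.77, 2.33 and 1.10 with shScrmbl, and the groups overlapped: shXbp1 replicates 1 and 2 were above 3 of the 4 shScrmbl libraries. The ratio carries the choice of Apoc2 and is a description.

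**Figure D2:**
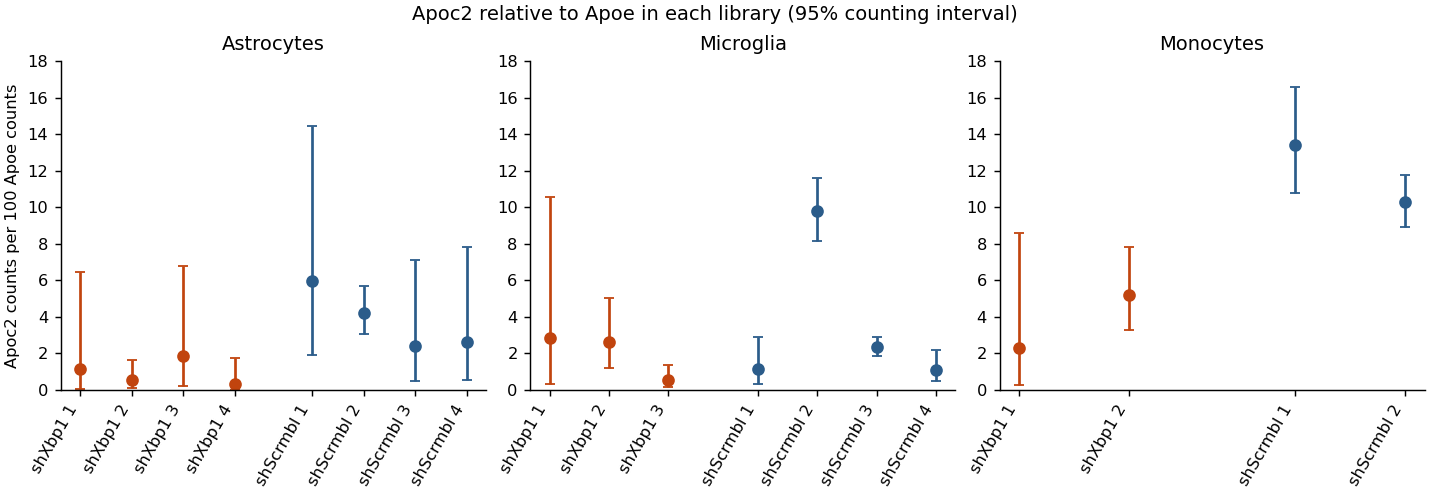
Apoc2 counts per 100 Apoe counts in every library, by cell type, with shXbp1 left of shScrmbl; points are libraries, and error bars are 95% exact intervals for counting error. The points separate by virus in astrocytes and monocytes, and overlap in microglia. In astrocytes the error bars of the 2 viruses overlap.

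Apoc2 is also known from macrophages, so marker genes of infiltrating monocytes and macrophages were read in the same libraries. In the microglia libraries 16 of 20 listed markers were measured and took 0.349% to 1.01% of counts with shXbp1, against 0.704% to 2.38% with shScrmbl. All 16 had a negative edgeR log2 difference, with a median of -1.39 beside -0.09 over all microglia genes, and 2 passed, where edgeR passed 0.391% of all. In the monocyte libraries 17 markers took 0.914% to 1.83%, against 2.24% to 2.40%, and in astrocytes 13 took 0.0695% to 0.186%, against 0.0377% to 0.429%. In edgeR 10 of the 17 were negative in monocytes, with a median of -0.61 beside -0.17 over all genes. In astrocytes 11 of the 13 were, with a median of -1.21 beside 0.05. In limma 7 of those 13 were negative, with a median of -0.06 beside 0.42. By astrocyte counts, Lyz2 had 166 with shXbp1 and 879 with shScrmbl, and Ifitm3 293 and 161. Per 100 counts of these markers, Apoc2 in microglia was 5.71, 6.72 and 1.67 with shXbp1, against 3.17, 6.44, 4.59 and 3.23 with shScrmbl, and the groups overlapped. In astrocytes it was 2.70, 0.730, 3.33 and 0.641, against 26.3, 3.40, 5.88 and 6.67, and in monocytes 1.40 and 2.31, against 5.60 and 8.87. Neither of those pairs of groups overlapped, shXbp1 being lower in both. The nearest astrocyte libraries were shXbp1 replicate 3, at 3.33 from 2 Apoc2 counts, and shScrmbl replicate 2, at 3.40. Like the ratio to Apoe, these ratios carry the choice of Apoc2 and are descriptions. The part of the marker difference in the Apoc2 difference was not tested.

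**Figure D3:**
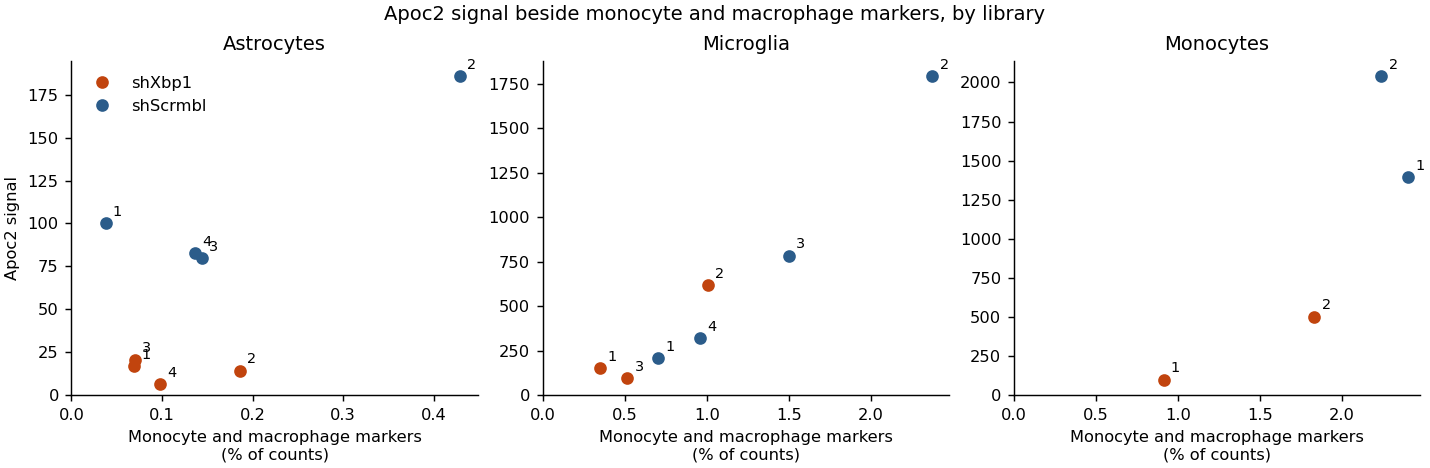
Apoc2 signal against the share of counts held by monocyte and macrophage markers, 1 point per library marked with its replicate number, by cell type and virus, on linear axes. In microglia both measures are higher in the shScrmbl libraries on average. In astrocytes the shXbp1 libraries lie below the shScrmbl ones in Apoc2, and the summed marker shares overlap. There, 11 of 13 markers had a negative edgeR difference, and the part of the markers in the Apoc2 difference was not tested.

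The genes whose signal was most like that of Apoc2 over the 19 libraries, after centring within each cell type, were Psap (Pearson r = 0.77), which encodes the precursor of the saposins that activate lysosomal lipid hydrolysis, the lysozyme gene Lyz1 (r = 0.75) and the macrophage perforin gene Mpeg1 (r = 0.75), among 817 genes with a median r of 0.12. Apoe ranked 11 for Apoc2 (r = 0.62). The genes most like Apoe were Dhrs3 (r = 0.83), a retinal reductase, Ctsa (r = 0.81), a lysosomal carboxypeptidase, and the MHC class II gene H2-Aa (r = 0.81). For Apod, over 15 libraries, they were Fdps (r = 0.74) and Mat2a (r = 0.72), enzymes of isoprenoid and S-adenosylmethionine synthesis, and E330033B04Rik (r = 0.72). The points share depth, virus and sort, and these are descriptions.

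Apoc1 and Apoc4 were near the limit of detection. Apoc1 in microglia measured 0, 69.0 and 95.8 with shXbp1, against 51.9, 75.7, 103 and 160 with shScrmbl, from 5 and 22 counts. The groups overlapped, and the limma log2 difference was -2.26 (adjusted p = 0.814), or -0.14 without the shXbp1 library at 0. In monocytes it measured 0 and 41.9, against 27.9 and 72.8, overlapping, from 2 and 10 counts. Apoc4 in microglia measured 0, 138 and 23.9 with shXbp1, against 0, 75.7, 103 and 40.0 with shScrmbl, overlapping, from 3 and 18 counts.

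In monocytes Apoc4 was at 0 in both shXbp1 libraries, against 69.9 and 36.4 with shScrmbl, or 0 against 9 counts. The pooled ratio of counts, shXbp1 over shScrmbl, was 0 with a 95% exact interval of 0 to 1.36 (counting error only), which includes equal levels. It passed in limma (adjusted p = 0.00516) with a log2 difference that depends on the pseudocount, and not in edgeR (adjusted p = 0.922) or with a pseudocount of 10 (limma adjusted p = 0.702). limma passed 2.68% of monocyte genes, 101 in number, and 99 of these were at 0 in both shXbp1 libraries, which were the shallower ones; edgeR passed 0.0265%. Leaving out shScrmbl replicate 1 or 2 ended the limma call, with adjusted p-values of 0.995 and 0.992.

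Apod had lower signal with shXbp1 in 3 of 4 astrocyte libraries than in any shScrmbl library. It measured 239, 707, 364 and 418 with shXbp1, against 481, 928, 2929 and 2372 with shScrmbl. The groups overlapped through shXbp1 replicate 2, at 707, and shScrmbl replicates 3 and 4, the shallowest of the 8 libraries, were the highest. The means were 432 ± 198 and 1677 ± 1161 (SD, n = 4 each), from 259 and 440 counts. The log2 difference of -1.73 ± 0.58 (SE, 95% interval -3.03 to -0.42) did not pass in limma (adjusted p = 0.824) or in edgeR with robust dispersion (adjusted p = 0.634), and passed in edgeR without it (adjusted p = 0.0130). Without shScrmbl replicates 3 and 4 the difference was -0.74 (limma adjusted p = 0.863).

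Read against markers, Apod per 100 astrocyte marker counts was 9.03, 21.7, 14.1 and 15.9 with shXbp1, against 30.4, 75.3, 81.5 and 85.1 with shScrmbl. These did not overlap, and the astrocyte markers themselves had a positive edgeR difference for 13 of 15, with a median of 0.86. Per 100 counts of endothelial, mural and fibroblast markers Apod was 11.9, 19.8, 19.6 and 16.6, against 21.6, 38.5, 81.5 and 62.8, which did not overlap either. Of those markers 6 of 7 had a positive edgeR difference, with a median of 0.44. Higher markers with shXbp1 lower such a ratio for any gene. The share of all genes separating by these ratios was not computed, so the separation is not read as particular to Apod. Per 100 choroid plexus and ependyma marker counts Apod was 0.135, 0.257, 0.244 and 0.163, against 0.155, 0.323, 1.30 and 1.11, which overlapped. Per 100 counts of oligodendrocyte lineage markers it was 3.29, 29.5, 9.14 and 18.1, against 13.5, 28.1, 96.5 and 38.9, which overlapped. Per 100 Apoe counts it was 15.7, 26.8, 32.1 and 19.3, against 28.6, 21.0, 87.3 and 74.8, also overlapping. In microglia Apod was low, at 152, 138 and 0 with shXbp1, against 51.9, 63.1, 177 and 40.0 with shScrmbl, from 4 and 26 counts. The groups overlapped, and the mean was higher with shXbp1 while the limma log2 difference was -1.35 (adjusted p = 0.856), or 1.05 without the shXbp1 library at 0.

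**Figure D4:**
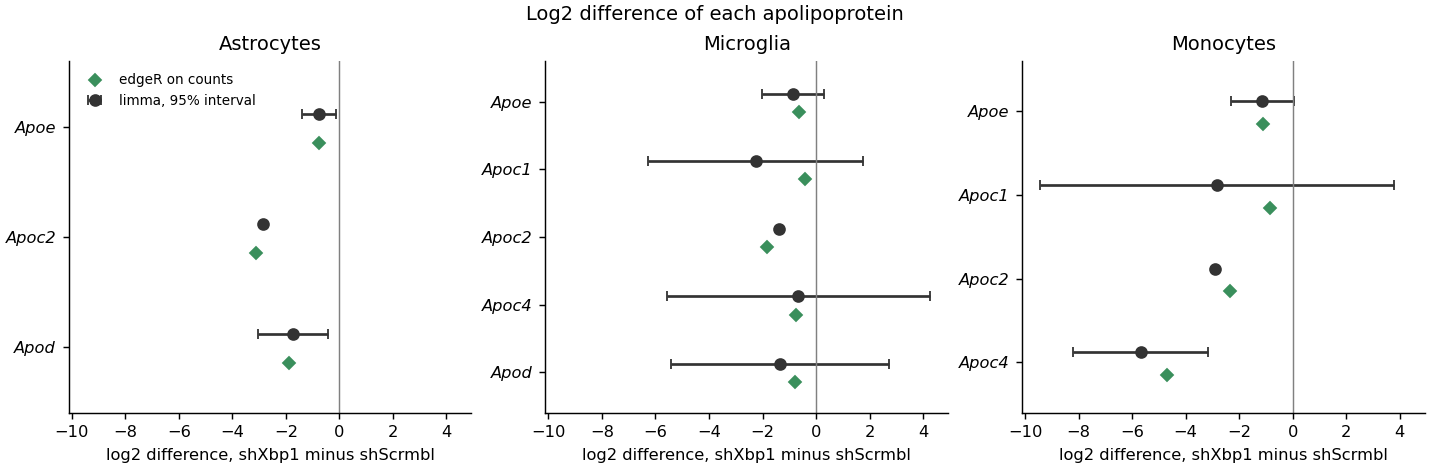
Log2 difference of each apolipoprotein, shXbp1 minus shScrmbl, in each cell type; limma estimates carry 95% intervals except for Apoc2, which was chosen for its difference, edgeR estimates stand beside them, and the line at 0 is no difference. Apart from Apoc2, the 9 estimates are negative in both fits, and the interval of Apoc1 in monocytes reaches from -9.43 to 3.79.

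Apart from the 3 differences of Apoc2, whose sign the choice fixed, all 9 differences had a negative sign in limma and in edgeR. Over all genes tested, 31.8% of astrocyte, 65.5% of microglia and 65.8% of monocyte genes were negative in limma, and 46.8%, 55.4% and 56.9% in edgeR. The median over all genes was 0.42, -0.39 and -0.42 in limma and 0.05, -0.09 and -0.17 in edgeR, so the negative signs in microglia and monocytes stand beside a general shift. In microglia none of the 5 genes separated by virus, where 4.92% of all genes did with shXbp1 lower. In monocytes Apoe and Apoc4 did, the second at 0 in both shXbp1 libraries, where 25% of all genes did; Apoc2, chosen for this difference, did too.

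Other genes that act on these lipoproteins gave few calls. Of the lipoprotein lipases and their regulators, none of 5 in astrocytes, 3 in microglia and 2 in monocytes passed in either fit. Lpl, the lipase that Apoc2 activates, averaged 27.1 ± 18.9 with shXbp1 and 10.5 ± 21.1 with shScrmbl in astrocytes (SD, n = 4 each), 205 ± 189 and 135 ± 98.3 in microglia (n = 3 and 4), and 52.3 ± 74.0 and 29.8 ± 22.3 in monocytes (n = 2 each). Its groups overlapped in each cell type. Lipa, the lysosomal acid lipase, averaged 52.3 ± 74.0 with shXbp1 and 286 ± 187 with shScrmbl in monocytes, from 5 and 57 counts, and did not pass in limma or edgeR.

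Of the lipoprotein and lipid receptors, none of 13 in astrocytes or 11 in microglia passed. Trem2, a microglial receptor that binds lipids and Apoe, averaged 643 ± 378 with shXbp1 and 591 ± 217 with shScrmbl in microglia, overlapping. Lrp1, an endocytic receptor for Apoe, averaged 56.1 ± 33.9 and 16.6 ± 22.0 in astrocytes, also overlapping. In monocytes 1 of 11 passed in limma: Apobr, a receptor for apolipoprotein B, with 0 against 9 counts, and it did not pass in edgeR (adjusted p = 0.922).

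The genes of cholesterol efflux and lipid transfer included no call: 9 were measured in astrocytes and 6 each in microglia and monocytes. In microglia all 6 had a negative difference, with an edgeR median of -0.84 beside -0.09 over all genes. Abca1, the transporter that loads cholesterol onto Apoe, averaged 135 ± 57.8 with shXbp1 and 223 ± 103 with shScrmbl in microglia, overlapping, and 77.6 ± 38.3 and 225 ± 41.9 in monocytes, not overlapping. That separation, with shXbp1 lower, was shared by 25% of all monocyte genes. In astrocytes Abca1 averaged 83.0 ± 14.9 and 82.2 ± 52.1. Npc2, which moves cholesterol out of lysosomes, was the most abundant of the list, at 1867 ± 564 and 2302 ± 672 in microglia. Liver X receptor targets and partners had no call either, with edgeR medians of -0.13 over 10 genes in astrocytes, 0.19 over 9 in microglia and -0.77 over 8 in monocytes.

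Fatty acid uptake and binding genes were lower in sign in microglia, 4 of 4, and in monocytes, 6 of 8 in edgeR. Fabp5, a fatty acid binding protein, averaged 360 ± 64.8 with shXbp1 and 908 ± 631 with shScrmbl in microglia and 308 ± 364 and 1074 ± 194 in monocytes. Gpnmb, a glycoprotein of lipid-laden macrophages, averaged 419 ± 479 and 863 ± 591 in microglia and 474 ± 98.9 and 1172 ± 610 in monocytes. Neither passed in limma or edgeR, and for both genes the groups overlapped in microglia and not in monocytes. Of all monocyte genes, 25% separated in that way with shXbp1 lower. The single call was Acsl1, an acyl-CoA synthetase, in monocytes by limma, with 0 against 12 counts (pooled ratio 0, 95% exact interval 0 to 0.966, counting error only), and it did not pass in edgeR (adjusted p = 0.922). With Acsl1 set at 3 counts over the shXbp1 group, the monocyte median of the list in edgeR was -0.92 in place of -1.37.

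**Figure D5:**
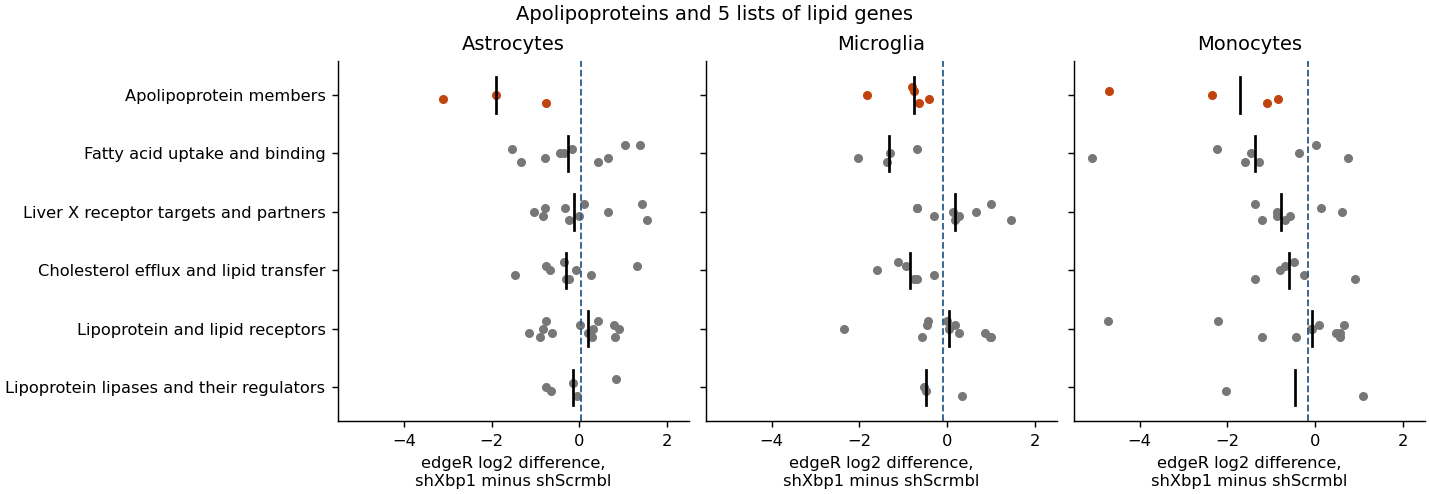
edgeR log2 differences, shXbp1 minus shScrmbl, of each measured gene in the lipid lists, by cell type, with the 5 apolipoproteins above 5 lists; points are genes, black bars are list medians and the dashed line is the median of all genes tested. Monocyte genes at 0 in both shXbp1 libraries have fitted values that are not bounds.

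Of other apolipoproteins, Clu, a secreted chaperone abundant in astrocytes, averaged 1447 ± 491 with shXbp1 and 1309 ± 199 with shScrmbl in astrocytes, overlapping (log2 difference 0.09 ± 0.27, SE; limma adjusted p = 0.937). Genes near the cluster that had a row were Bloc1s3 and Trappc6a. Bloc1s3 averaged 69.6 ± 37.6 and 41.1 ± 47.4 in astrocytes, 58.6 ± 81.7 and 61.8 ± 30.7 in microglia, and 25.3 ± 35.7 and 41.3 ± 18.9 in monocytes, overlapping in each. Trappc6a averaged 27.5 ± 12.5 and 53.5 ± 20.6 in astrocytes, also overlapping.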

How the data were processed

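Sorted astrocytes, microglia and monocytes were profiled by 3′ digital gene expression. Reads were handled with BWA 0.7.10 and limma 3.34.1 on mm10, per the submitters' processing notes. The deposited tables, 1 per cell type, hold a normalized signal by the authors, whose scaling is not given in the sources used here. Within each library every value above 0 was a whole multiple of 1 unit (100% within 0.01), so counts were recovered; whether these are molecules or reads is not stated.

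A gene was kept where its signal reached 1 in a number of libraries no lower than the size of the smaller group. Kept genes were tested on log2(signal + 1) with limma 3.58.1 (trend, robust; R 4.3.3), per cell type, shXbp1 against shScrmbl. edgeR 4.0.16 (quasi-likelihood, TMM) and DESeq2 1.42.0 on the recovered counts were alternatives, as were other filters, pseudocounts and scalings, thinning to equal depth, and leaving out each library. Libraries are labelled as separate samples, and p-values measure the spread between them; limma's intervals come from that spread, while the exact intervals on counts cover counting error only. The members and gene lists were chosen with earlier results of these data known. Named genes were the 5 apolipoproteins, Xbp1, the 3 genes most like Apoc2, Apoe and Apod (mean signal of at least 100), cluster neighbours, and lipid-list genes of high signal, passing a test or set by name. Python 3.11.15 made the tables and figures.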

Additional observations from a re-analysis of the deposited data

Results flagged for a closer look

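Apod in microglia stood out for 1 library: shScrmbl replicate 3, at a signal of 177, lay far from the other shScrmbl libraries, at 51.9, 63.1 and 40.0. Of 11 groups of 4 libraries examined this way, it was the only one, and chance gives about 1 in 20.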

How the results depend on the processing

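Apart from Apoc2, whose sign the choice fixed, the 9 limma differences were recomputed under 141 alternatives, of which 137 kept a negative sign. Those that turned were microglia Apoc1 with thinned counts (2.77), Apoc4 without shScrmbl replicate 3 (0.05) and without shXbp1 replicate 1 (1.30), and Apod without shXbp1 replicate 3 (1.05). In edgeR, microglia Apod turned without shScrmbl replicate 3 (0.10) and without shXbp1 replicate 3 (0.43), where it ran from -1.56 to 0.43, and monocyte Apoc1 without shScrmbl replicate 2, in a range of -4.92 to 0.010. The causes were not tested.

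Apoc2 was -4.28 with quantile normalization and -4.29 with thinned counts in astrocytes, and -3.25 with thinned counts in microglia. Leaving out 1 library gave -3.05 to -2.54 in astrocytes, -2.19 to -0.84 in microglia and -4.05 to -1.75 in monocytes. For Apoe it gave -1.03 to -0.54, -1.27 to -0.20 and -1.71 to -0.57; limma called none of these. In monocytes, leaving out 1 library leaves an arm of 1, which is assumed to vary like the other group; so fitted, edgeR gave Apoe adjusted p-values of 0.000179 and 8.26e-28 without shXbp1 replicate 1 and 2, against 0.988 with both. For astrocyte Apod it gave -2.21 to -1.35, and edgeR adjusted p-values from 1.67e-08 to 0.998, 4 of 8 under 0.05. edgeR without robust dispersion gave Apod -1.89 (adjusted p = 0.0130). Microglia Apoc1 ran from -3.44 to -0.14, Apoc4 from -2.26 to 1.30 and Apod from -2.58 to 1.05; monocyte Apoc1 ran from -5.53 (without shXbp1 replicate 2, which leaves 1 shXbp1 library, at 0 counts) to -0.11.

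The limma call of monocyte Apoc4 was lost with edgeR (-4.70, with or without robust dispersion), DESeq2 (-3.11), a pseudocount of 10 (-2.61), quantile normalization (-1.91) and thinned counts (-6.02), and without 1 library it ran from -6.15 to -5.23. A mean signal of at least 50 left out genes below it, which then have no value.

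Against 0 calls in limma, astrocytes had 1 in edgeR, 4 without robust dispersion, 1 with thinned counts and 0 in DESeq2; microglia had 12, 13, 4 and 0, and 6 with quantile normalization, with 0 to 3 when 1 library was left out. The 101 monocyte calls became 1 in edgeR with or without robust dispersion, 0 in DESeq2, with a pseudocount of 10, a mean signal of at least 50, quantile normalization or thinned counts, and 0 to 1163 when 1 library was left out.

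Labels do not say whether equal replicate numbers share a mouse. Deviations of same-numbered libraries correlated at -0.0756 to 0.0644, and those of differently numbered ones at -0.101 to 0.0756. With 2 libraries per group, every monocyte value is 0.0756 in size whatever the pairing. These correlations therefore neither show nor exclude pairing. With the number as a replicate block, which left out microglia shScrmbl replicate 4, limma gave 0, 0 and 112 calls in astrocytes, microglia and monocytes and -0.75 for astrocyte Apoe, and edgeR gave 3, 24 and 0 calls, Apod in astrocytes among them (adjusted p = 0.000718). Apoc1 and Apoc4 rested on 0 to 22 counts per group, and microglia Apod on 4 and 26.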
